A study of Mus musculus with 6 samples.

Results

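Small GTPases of the Rab, Arf and Arl families direct membrane traffic: each is switched on by an exchange factor that loads GTP, recruits its effectors to 1 kind of membrane, and is switched off by a GTPase activating protein. In the adrenal gland, chromaffin cells of the medulla use them to build, move and release catecholamine granules, and steroid-producing cells of the cortex use them for general secretion, endocytosis and lipid traffic. The 56 probe sets described here were all those whose single platform symbol was a Rab number, Arf1 to Arf6 or an Arl number, out of 12488 on the array. They stood for 42 genes, 33 Rab, 6 Arf and 3 Arl genes. Each gene was described by its probe set of highest mean signal over all arrays.

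Expression was measured on single-colour arrays of whole adrenal glands from 3 chromogranin A (Chga) knockout mice and 3 wild-type mice, males aged 12 weeks in both genotypes. Chga encodes an abundant protein of chromaffin granules. The labels name the source of both lines but not their strain background or the deleted part of the gene, and they give no treatment. Each array was read as 1 animal, since the series describes 3 mice per genotype. In a whole gland, fewer cells of a type and less RNA per cell cannot be told apart.

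The genotypes followed their labels. Chga had signals of 1188, 858 and 951 in the knockout glands against 46719, 30213 and 35306 in the wild-type glands (a log2 change of -5.19 ± 0.20, SE, limma adjusted p = 5.29e-06). Markers of the chromaffin cell and of the cortex were well measured on all arrays: 8 of 12 chromaffin and 7 of 9 cortex markers were on the array and all of these passed the filter on dim probe sets. Summed signal of the chromaffin markers was between 234958 and 250437 in knockout and between 180851 and 212936 in wild-type glands, without overlap. The gap in the sum depended on Chgb (93585 to 120199 against 69305 to 77123), the brightest of these markers. Without it the sums overlapped, at 129644 to 152228 against 103728 to 143631. Of the 8 markers, 4 overlapped singly. The other 4, Chgb, Npy, Penk and Snap25, were each higher on all 3 knockout arrays, as were 7.88% of all tested genes. The sum of the cortex markers overlapped (497411 to 575251 and 471631 to 570898). Endothelial markers, 8 of 9 on the array, did not overlap in sum (27509 to 32518 against 21873 to 25022), but did without Eng (14762 to 18173 against 12456 to 14984). Knockout arrays 2 and 3 stood apart from the other 4. Their summed signal of 12 skeletal muscle markers was 83131 and 42586, against 10677 on knockout array 1 and 11002 to 11456 in wild type, and no muscle marker was at 0. Not every muscle marker rose on both arrays. Ckm read 553 and 651 there against 636 to 818 in wild type, and Myh4 and Actn3 were above wild type on array 3 only. The other muscle markers were above wild type on both. Knockout arrays 2 and 3 also had the highest ratios of 3' to 5' signal of the Gapdh control transcript, a sign of RNA or cRNA integrity. These were 1.30 and 1.29 against 0.762 to 0.831 on the other arrays. The ratios of the actin control transcript were 1.69 and 1.72 against 1.14 to 1.32. The mean of the log2 ratios of both transcripts served as the covariate below. Macrophage markers, 13 of 14 on the array, summed to 45858 and 39016 on these 2 arrays and to between 22094 and 26281 on the other 4. Values with knockout array 1 alone and with the 3' to 5' signal ratio as covariate are given for the members described in most detail, with all 36 in the plot of refits, and the part of the marker differences was otherwise not tested. The covariate was -0.058 to -0.053 in wild type, 0.066 on knockout array 1, and 0.572 and 0.575 on arrays 2 and 3. Both refits therefore lean mainly on knockout array 1 and are not independent checks.

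No Rab, Arf or Arl gene passed the test between genotypes. The filter on dim signals kept 36 of the 42 genes, and in limma 0 of these had an adjusted p under 0.05, against 0.388% of all 5663 named genes tested (22 genes) and 0.443% of all tested probe sets. At an unadjusted p under 0.05 there were 3 of 36, a share of 8.33% beside 10.8% of all genes. Of the 3, 1 was higher and 2 were lower in the knockout, where 5.26% and 5.49% of all genes were. Leaving out 1 array gave between 1 (2.78%, without knockout array 2, against 6.85% of all genes in that fit) and 6 (16.7%, without knockout array 1, against 16% of all genes). The 3 knockout arrays lay wholly above or wholly below the 3 wild-type arrays for 6 of 36 genes (16.7%), and for 16.3% of all genes. Both shares were close to the background. After median scaling of the arrays the 6 became 3 (8.33%, against 15.1% of all genes).

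Log2 changes of the 36 genes ran from -0.58 to 0.51 with a median of -0.08, beside a median of -0.00 over all genes. Of the 36, 33 had a change smaller than 0.5 log2 units (91.7%, against 87.9% of all genes). The 95% confidence interval of the change lay within 1 log2 unit of 0 for 33 of 36 genes, so that a change to 2 times the wild-type level or more, in either direction, was outside it. This held for 81.2% of all genes. The 3 exceptions were Rab3a, Rab5b and Arf2. These counts are for the brightest probe set, and dimmer tested probe sets of Rab7, Rab10, Rab14 and Arf6 had intervals beyond 1 log2 unit. Intervals lay within 0.5 log2 units of 0 for 19 of 36, against 23% of all genes. The spread between arrays of a genotype had a median SD of 0.19 log2 units over the 36 genes and of 0.24 over all genes. Among genes above the 60th percentile of mean signal these medians were 0.16 and 0.21, and the intervals within 1 log2 unit were 30 of 31 (96.8%) and 90.1%.

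**Figure D1:**
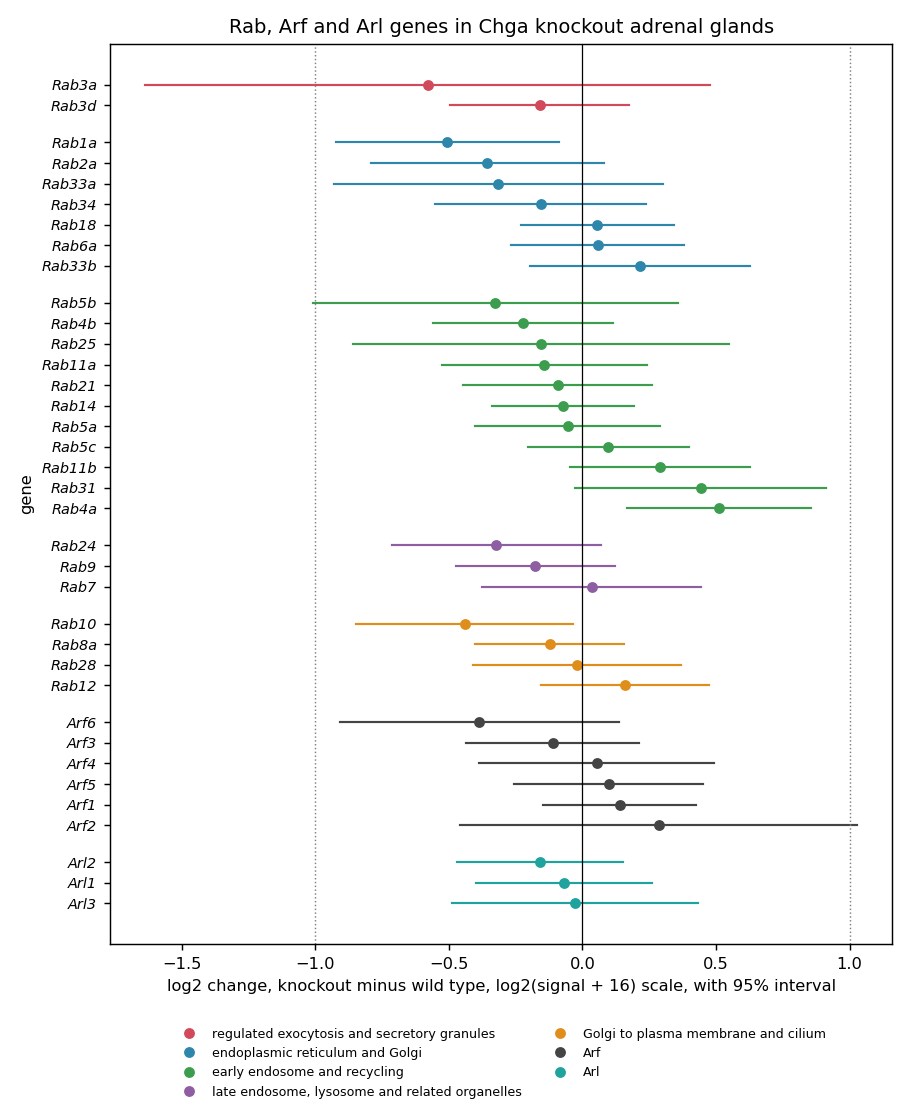
Log2 change (x axis, knockout minus wild type on the log2(signal + 16) scale) of each of the 36 tested Rab, Arf and Arl genes (y axis), with bars for the 95% confidence interval of limma and colours for the role. All points lie between -0.58 and 0.51, and the intervals of Rab3a, Rab5b and Arf2 cross the dotted lines at 1 log2 unit.

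Lower values were more frequent than higher ones, at 23 of 36 genes (63.9%, beside 50.3% of all genes). In the refit with the covariate 13 of 36 were lower (36.1%, against 49.5% of all genes) and the median was 0.03. The covariate was high only on knockout arrays 2 and 3, which also had the highest muscle and macrophage sums. This refit therefore cannot tell the signal ratio apart from tissue content or from these arrays themselves. The cause of the turned split was not tested. With knockout array 1 alone against wild type, 20 of 37 tested genes were lower (54.1%, against 50.6% of all genes) and the median was -0.01. The median deviation of the 36 genes from the wild-type mean was -0.01, -0.18 and -0.08 log2 units for the knockout glands, in array order, against 0.08, -0.04 and -0.07 for the wild-type glands. The Rab genes had a median change of -0.12 over 27 tested genes, the Arf genes of 0.08 over 6 and the Arl genes of -0.07 over 3.

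The promoters of 5 members are shown because these genes had groups that did not overlap or an unadjusted p under 0.05 and an entry in the RefSeq promoter table of the GRCm38.p6 build. Rab4a and Arf6, whose groups did not overlap either, and Rab2a and Rab18 have no entry there. Each window runs from 250 bases before to 50 bases after the gene's start, 5′ to 3′, with capitals for a GC box (GGGCGG) or a CCAAT box (CCAAT) on either strand. They lie at chr11:20201162-20201461 on the plus strand (Rab1a), chr12:3309920-3310219 on the minus strand (Rab10), chr17:33760437-33760736 on the minus strand (Rab11b), chr8:72160950-72161249 on the plus strand (Rab8a) and chr19:6141088-6141387 on the minus strand (Arl2).
Rab1a: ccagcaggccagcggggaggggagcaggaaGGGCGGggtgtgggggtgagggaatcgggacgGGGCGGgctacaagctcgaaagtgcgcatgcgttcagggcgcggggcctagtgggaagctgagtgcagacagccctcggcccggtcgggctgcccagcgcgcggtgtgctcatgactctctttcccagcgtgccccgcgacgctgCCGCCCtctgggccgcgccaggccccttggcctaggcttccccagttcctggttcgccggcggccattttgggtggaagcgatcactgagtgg
Rab10: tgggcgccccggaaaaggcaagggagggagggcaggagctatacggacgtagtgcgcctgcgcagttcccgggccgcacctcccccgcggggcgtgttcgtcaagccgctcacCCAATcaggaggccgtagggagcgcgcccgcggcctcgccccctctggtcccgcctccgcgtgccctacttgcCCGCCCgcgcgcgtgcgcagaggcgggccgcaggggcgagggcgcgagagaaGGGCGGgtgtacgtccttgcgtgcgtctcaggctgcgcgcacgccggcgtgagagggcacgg
Rab11b: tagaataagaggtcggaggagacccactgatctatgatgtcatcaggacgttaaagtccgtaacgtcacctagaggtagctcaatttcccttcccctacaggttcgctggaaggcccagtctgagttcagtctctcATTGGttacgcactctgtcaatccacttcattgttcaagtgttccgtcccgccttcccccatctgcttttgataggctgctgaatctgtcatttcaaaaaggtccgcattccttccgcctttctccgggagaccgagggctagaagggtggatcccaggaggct
Rab8a: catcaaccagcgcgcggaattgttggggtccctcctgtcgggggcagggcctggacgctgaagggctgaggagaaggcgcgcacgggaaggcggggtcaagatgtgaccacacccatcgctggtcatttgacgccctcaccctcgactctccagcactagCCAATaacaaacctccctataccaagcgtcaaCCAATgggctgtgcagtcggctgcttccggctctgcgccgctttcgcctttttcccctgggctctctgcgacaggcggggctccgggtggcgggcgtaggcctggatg
Arl2: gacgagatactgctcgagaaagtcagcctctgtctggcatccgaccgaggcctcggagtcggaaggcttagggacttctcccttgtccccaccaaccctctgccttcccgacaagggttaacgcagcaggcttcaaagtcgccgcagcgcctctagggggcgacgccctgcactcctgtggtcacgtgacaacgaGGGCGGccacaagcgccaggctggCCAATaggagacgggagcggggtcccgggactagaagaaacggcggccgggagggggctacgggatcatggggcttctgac

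The 5 windows differ in make-up. Those of Rab1a and Rab10, the 2 genes with lower values and an unadjusted p under 0.05, hold 3 and 2 GC boxes and 27 and 43 CpG dinucleotides, with a G and C content of 70.3% and 74.7%. That of Rab11b has 0 GC boxes, 1 CCAAT box and 12 CpG, and a G and C content of 51.3%. That of Rab8a has 0 GC boxes, 2 CCAAT boxes and 23 CpG. That of Arl2 has 1 GC box, 1 CCAAT box and 24 CpG.

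Across the 38 member genes with an entry, 45 windows were searched on both strands. A GC box was in 35 of 45 (77.8%), against 62.2% of the 5908 windows of all tested genes and 35.7% of all 32851 windows. A CCAAT box was in 42.2%, against 37.1% and 37.4%. The median number of CpG per window was 25 in members, 21 in tested genes and 7 over all windows. A TATA box (TATAAA) was found for Rab3b and Rab7 (4.44% of windows, against 8.02% and 13.6%). The cAMP response element (TGACGTCA, which reads the same on both strands) was found for Rab25 and Rab5a (4.44%, against 2.88% and 1.79%). An AP-1 site (TGANTCA) was found for Rab34 alone (2.22%, against 5.47% and 7.81%). These matches are letters in a window, and binding was not measured.

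The Rabs of regulated exocytosis are the members tied most closely to granules: Rab3 proteins sit on secretory vesicles and act at docking and release. Of the 3 on the array, Rab3a and Rab3d were tested and had no call, and Rab3b was not tested. Rab3a had signals of 2644, 1717 and 710 in knockout, here and below in the order of arrays 1 to 3, against 2681, 3028 and 1341 in wild type. The groups overlapped, and array 3 was the lowest of its group in both genotypes. Its log2 change of -0.58 had the widest interval of all tested members, -1.64 to 0.48 (limma adjusted p = 0.679), and it turned to 0.25 with knockout array 1 alone and to 0.55 with the 3' to 5' signal ratio as covariate. Rab3d, the isoform known from exocrine granules, read 5140, 4348 and 4641 against 5386, 5742 and 4678. The groups overlapped, and its interval was narrower, -0.50 to 0.18 around a change of -0.16. Rab3b was left out as dim, with 1068, 407 and 327 in knockout and 1516, 231 and 370 in wild type. Array 1 was far above the other arrays in both genotypes.

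Among GTPases of the endoplasmic reticulum and Golgi, 7 of 7 genes were tested, 4 had lower and 3 higher values, and the median change was -0.16. Rab1a, which controls transport from the endoplasmic reticulum to the Golgi, had the smallest unadjusted p of the lower genes. It read 4587, 2966 and 3541 in knockout and 5713, 4972 and 4866 in wild type (3698 ± 822 and 5184 ± 462, SD, n = 3). The groups did not overlap, as for 8.41% of all genes in this direction. The log2 change was -0.50 ± 0.19 (SE, interval -0.92 to -0.09, limma adjusted p = 0.39). Knockout array 1 was closest to the wild-type values, and the change was -0.17 with that array alone and -0.06 with the covariate. Rab2a, which acts at the same stage and on the early Golgi, read 10587, 7706 and 7791 against 14028, 10020 and 9490. The groups overlapped through knockout array 1 (change -0.36, limma adjusted p = 0.515), and the change was -0.06 with that array alone. The second probe sets of Rab1a and Rab2a were dim on all 6 arrays and were not tested.

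The other Golgi members had values nearer to 0 on their brightest probe sets. Rab6a, of retrograde Golgi traffic, and Rab18, of the endoplasmic reticulum and lipid droplets, had changes of 0.06 each, with intervals of -0.27 to 0.38 and -0.23 to 0.34. The second probe set of Rab6a had -0.30 (interval -0.68 to 0.09). Rab18 read 16847, 16945 and 14630 in knockout and 16737, 14587 and 15214 in wild type, with full overlap. The paralogues Rab33a and Rab33b, linked to Golgi traffic and autophagy, had changes of -0.31 and 0.21 (limma adjusted p = 0.698 and 0.69). The probe set of Rab33b is named as one shared with other transcripts, as is that of Arf4 below. Rab34, linked to the Golgi and lysosome position, had -0.16, and 0.12 with knockout array 1 alone.

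Rab4a, which returns receptors from early endosomes to the cell surface, had the smallest unadjusted p of all members. It read 4395, 4245 and 3534 in knockout and 2884, 2759 and 2850 in wild type (4058 ± 460 and 2831 ± 64.8, SD, n = 3). Every knockout array was above every wild-type array, as for 7.88% of all genes, and the wild-type arrays were tightly grouped. The log2 change was 0.51 ± 0.15 (SE, 1.42-fold, interval 0.17 to 0.86, unadjusted p = 0.00851), and it did not pass over all probe sets (limma adjusted p = 0.281). Unlike Rab1a and Rab10, its value was not smaller with knockout array 1 alone (0.63) or with the covariate (0.68), as for Arf1 and others. Over all 16 refits the change was between 0.45 and 0.68 and the adjusted p between 0.234 and 0.920.

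Its paralogue Rab4b, of the same recycling step, had the opposite sign. It read 3846, 4022 and 4480 against 4351, 5335 and 4756, with overlap between the groups (change -0.22, limma adjusted p = 0.608). The log2 ratio of Rab4a to Rab4b within an array was 0.19, 0.08 and -0.34 in knockout and -0.59, -0.95 and -0.74 in wild type. All knockout arrays were above all wild-type arrays, with a difference of 0.73 and a two-sided exact permutation p of 0.1, the smallest that 3 against 3 arrays allow. Of 7 ratios between numbered paralogues compared in this way, none could pass after Benjamini-Hochberg adjustment, and Rab4a to Rab4b had an adjusted value of 0.525. The other 6 ratios, of Rab3a to Rab3d, of Rab5a, Rab5b and Rab5c among themselves, of Rab11a to Rab11b and of Rab33a to Rab33b, had differences between -0.53 and 0.27 and exact permutation p values from 0.2 to 0.6. A ratio within an array shows only that 2 probe sets changed unequally.

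**Figure D2:**
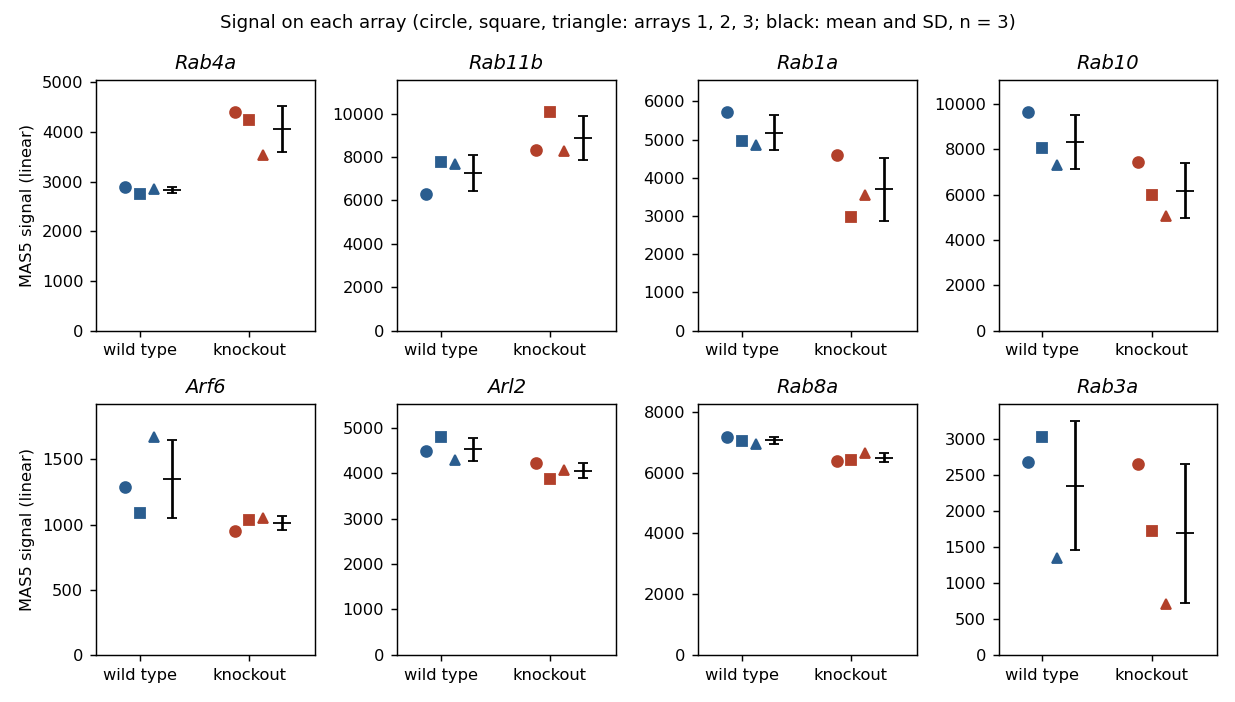
MAS5 signal (y axis, linear, from 0) of 8 genes on each wild-type and knockout array, with a black mark and bar for the mean and SD over 3 arrays. Rab4a and Rab11b are higher on all 3 knockout arrays, Rab1a, Arf6, Arl2 and Rab8a are lower on all 3, and Rab10 and Rab3a overlap.

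Of the 14 genes of early endosomes and recycling on the array, Rab4a and Rab4b included, 11 were tested, 4 with higher and 7 with lower values and a median of -0.07. Rab11b, of the recycling endosome, read 8333, 10048 and 8259 against 6309, 7754 and 7695. Its groups did not overlap, but the change of 0.29 did not pass (interval -0.05 to 0.63, limma adjusted p = 0.496). Its paralogue Rab11a read 15813, 10301 and 12647 against 15364, 13794 and 13069, with overlap, a change of -0.14 and 0.17 with knockout array 1 alone. The early endosome regulators Rab5a, Rab5b and Rab5c had changes of -0.06, -0.33 and 0.10. The interval of Rab5b reached -1.01, and its change was -0.15 with knockout array 1 alone. Rab14, which links the Golgi and endosomes, read 16662, 16304 and 14710 against 16610, 16115 and 17360. Its interval was the narrowest of the tested members, -0.34 to 0.19 around -0.07.

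Rab31, which carries cargo from the Golgi to endosomes, read 2362, 2825 and 3724 in knockout and 2511, 1964 and 1998 in wild type. Knockout array 3 was the highest and array 1 lay among the wild-type values. Its change of 0.44 (limma adjusted p = 0.472) was 0.14 with knockout array 1 alone and 0.03 with the covariate, and its second probe set had -0.18. Rab21, of endosomal traffic of integrins, had -0.09, and Rab25, the epithelial relative of Rab11, had -0.15 with knockout array 2 at 825 and wild-type array 3 at 884. Rab17, Rab20 and Rab35 were left out as dim, with signals between 67.6 and 1006 and overlapping groups.

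At late endosomes and lysosomes 3 of 3 genes were tested and none had an unadjusted p under 0.05 on its brightest probe set. Rab7, the main Rab of late endosomes, read 7089, 5072 and 6389 against 7222, 5477 and 5404, with full overlap and a change of 0.03 (interval -0.37 to 0.44), which was 0.24 with knockout array 1 alone and 0.32 with the covariate. Rab9, of the return route from late endosomes to the Golgi, read 8077, 6757 and 7369 against 8675, 7928 and 8430. Only knockout array 1 reached into the wild-type range (change -0.18, limma adjusted p = 0.655). Rab24, linked to autophagy, had -0.32, which was -0.01 with knockout array 1 alone.

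Of the GTPases that carry cargo from the Golgi to the plasma membrane or serve the cilium, 4 of 6 were tested. Rab10, which brings secretory vesicles to the plasma membrane, read 7447, 5999 and 5049 in knockout and 9619, 8031 and 7304 in wild type (6165 ± 1208 and 8318 ± 1184, SD, n = 3). The groups overlapped only through knockout array 1, which lay just above wild-type array 3. The log2 change was -0.44 ± 0.18 (SE, interval -0.85 to -0.03, limma adjusted p = 0.408), and it was -0.15 with knockout array 1 alone and -0.05 with the covariate. Its second probe set, at 5001, 3109 and 2938 against 5828, 5223 and 5154, had groups that did not overlap and a change of -0.59 (limma adjusted p = 0.386).

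Rab8a, a close relative of Rab10 in the same step, varied least of all tested members. It read 6391, 6405 and 6658 in knockout and 7179, 7045 and 6958 in wild type, so that the groups did not overlap at a change of only -0.12 (interval -0.40 to 0.16). The SD within a genotype was 0.028 log2 units. Rab28, known from cilia, had -0.02, and -0.28 with knockout array 1 alone. Rab12, listed in this group but also known from traffic between recycling endosomes and lysosomes, had 0.16. Rab8b and Rab23 were left out as dim, with signals between 75.4 and 869 and overlapping groups.

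Arf proteins recruit vesicle coats, and all 6 on the array were tested. Arf1 read 47610, 40974 and 39127 against 41984, 35379 and 38478, with overlap, a change of 0.14 and an interval of -0.15 to 0.43. Arf3, Arf4 and Arf5 had -0.11, 0.05 and 0.10. With knockout array 1 alone Arf1 had 0.31 and Arf4 0.26. Arf2 read 578, 742 and 1232 against 713, 664 and 611, where knockout array 3 alone stood high, and its change of 0.29 became -0.19 with knockout array 1 alone.

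Arf6, which acts at the plasma membrane and endosomes and takes part in granule release in chromaffin cells, had lower values on all 3 knockout arrays. Its brighter probe set read 952, 1036 and 1053 in knockout and 1285, 1086 and 1674 in wild type (1014 ± 54.0 and 1349 ± 299, SD, n = 3), a change of -0.39 (interval -0.91 to 0.14, limma adjusted p = 0.556). Without wild-type array 3, the highest, that change was -0.22, and it was -0.47 with knockout array 1 alone and -0.50 with the covariate. The dimmer probe set read 452, 486 and 487 against 940, 914 and 718. Its knockout values lay under the filter near 582, so it was tested only through wild type and had to differ, and its change of -0.82 is a description.

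The 3 Arl genes had no call. Arl2, which takes part in tubulin folding, read 4212, 3875 and 4069 in knockout and 4489, 4798 and 4297 in wild type. The groups did not overlap, at a change of -0.16 (interval -0.47 to 0.15, limma adjusted p = 0.696). Arl1, which recruits golgins to the trans-Golgi, had -0.07, and Arl3, which releases lipid-anchored cargo in cilia, -0.03. Arl1 was 0.12 and Arl3 -0.40 with knockout array 1 alone, and Arl3 was -0.53 with the covariate.

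**Figure D3:**
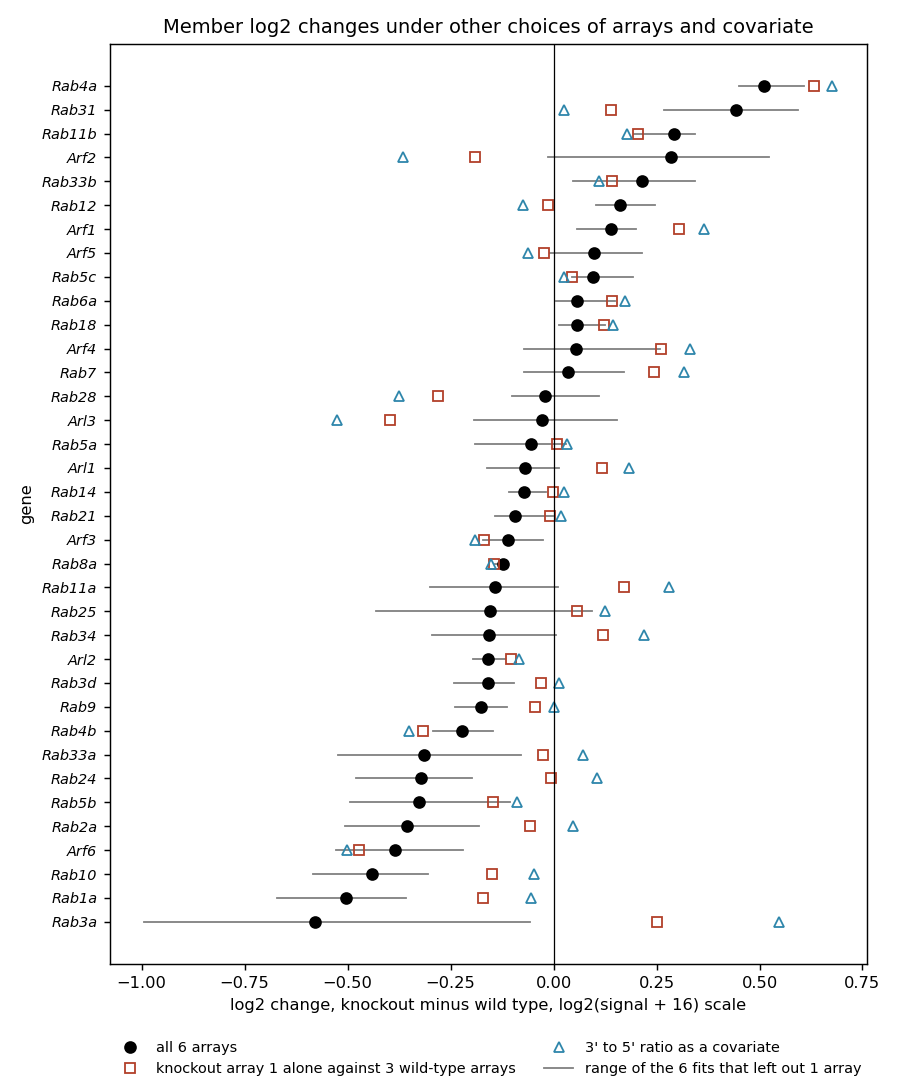
Log2 change (x axis) of the 36 tested genes (y axis) with all 6 arrays (filled circles), with knockout array 1 alone against wild type (squares) and with the 3' to 5' signal ratio as covariate (triangles), and grey lines for the range over the fits that left out 1 array. Rab4a and Arf6 lie farther from 0 in both refits, though Arf6 comes to -0.22 without wild-type array 3. Other members, among them Arf1, Arf4, Rab4b and Arl3, also lie farther from 0 in both. Rab1a, Rab10 and Rab2a come closer to 0, and Rab3a turns from -0.58 to 0.25 and 0.55. Both refits lean mainly on knockout array 1 and are not independent checks.

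Several genes had more than 1 probe set, which measure different stretches of a transcript. Of 12 such genes 9 had at least 2 tested, and in 4 of the 9 all tested probe sets had the same sign. These were Rab10, Rab11a, Rab33b and Arf6, the last with a probe set that passed the filter only through wild type. The span between probe sets of a gene had a median of 0.35 and ran from 0.065 to 0.91 log2 units. The widest was that of Rab7, whose second probe set read 4249, 1427 and 2066 against 5217, 3506 and 4310. Knockout arrays 2 and 3 were low and array 1 lay within the wild-type range, a change of -0.88 (interval -1.68 to -0.08, limma adjusted p = 0.408) beside 0.03 on the brightest. The name of this probe set marks probes shared with other transcripts. Rab14 spanned 0.87, from -0.19 to 0.68, on 2 dimmer probe sets beside the well-measured one at -0.07.

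**Figure D4:**
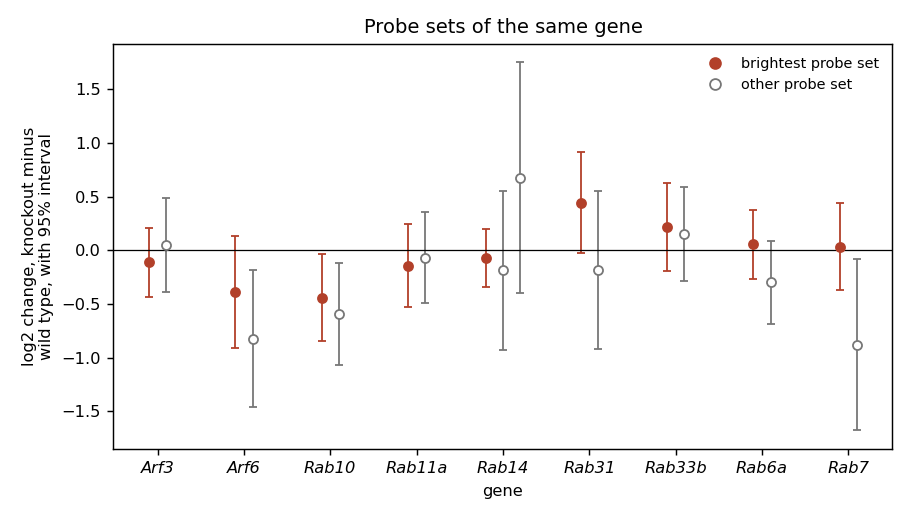
Log2 change with 95% confidence interval (y axis) of each tested probe set of the 9 genes with at least 2 (x axis), filled for the brightest and open for the others. Both probe sets of Rab10 lie below 0, as do those of Arf6, whose dimmer one passed the filter only through wild type, while those of Rab7, Rab31 and Rab6a lie on both sides of 0.

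Genes of proteins that switch Rab, Arf and Arl GTPases on and off, or read their active state, showed no call where tested. Of 230 listed, 93 were on the array and 82 passed the filter on dim probe sets. Of 82 such genes tested, 0 passed in limma and 6 had an unadjusted p under 0.05 (7.32%, against 10.8% of all genes), 4 higher and 2 lower, and the median change was 0.03. In 8 of 82 the groups did not overlap (9.76%, against 16.3% of all genes). Both counts include Kif20a, whose mean in knockout was under the filter, so that it was tested only through wild type. By list, 0 of 10 GDI, escort and prenylation genes, 0 of 16 exchange factors, 0 of 19 GTPase activating proteins and 0 of 37 effectors and adaptors passed, with medians of -0.02, 0.09, 0.05 and 0.01.

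Rabac1, which encodes the Rab acceptor of the Golgi that helps Rabs leave their GDI, read 36011, 33491 and 32636 in knockout and 32343, 25368 and 24761 in wild type. Its groups did not overlap, at a change of 0.32 (limma adjusted p = 0.427). Gdi2, which holds inactive Rabs in the cytosol, had -0.19 and the CAAX protease gene Rce1 0.29. Rabggta, a subunit of the enzyme that attaches the lipid anchor to Rabs, read 1641, 926 and 308 against 1554, 1428 and 1361. Knockout array 1 was the highest of all 6 and array 3 the lowest, so that its change of -0.88 was 0.18 with array 1 alone. Among exchange factors Rin2, for Rab5, had 0.55, Dennd5a 0.28, the Golgi Arf factor Gbf1 0.26 and Trappc4 -0.22 (limma adjusted p between 0.408 and 0.633).

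The list of GTPase activating proteins, whose activity was not measured, included Tbc1d24, at 1152, 880 and 842 against 513, 689 and 578. Every knockout array was higher, at a change of 0.67 (limma adjusted p = 0.408). The Arf-directed Agap1, Git1 and Smap1 had 0.27, 0.38 and -0.39. Of the effectors, Rab11fip5, a partner of Rab11, read 2691, 2514 and 2268 against 1872, 1445 and 1729. Its groups did not overlap, at a change of 0.57 (limma adjusted p = 0.313). The coat subunit gene Arcn1 had -0.52 and Rufy1, a Rab4 partner, 0.40. Kif20a, a motor of cell division that also binds Rab6, read 199, 1027 and 200 in knockout and 1079, 1575 and 1739 in wild type. Its mean in knockout was under the filter and it was tested only through wild type, so its change of -1.99 (limma adjusted p = 0.271) is a description, as is its passing without knockout array 2, where both remaining knockout values are dim.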

How the data were processed

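Whole adrenal RNA of 6 mice was hybridised to single-colour arrays. The deposited table holds 1 linear intensity per probe set; the submitters' processing notes name MAS5, with no version or scaling target in the sources used here. The mean signal after removing the top and bottom 2% was 2501 on every array, so values were not normalized again. All 6 arrays were used, and 66 control probe sets were left out of tests. Of the other 12422 probe sets, 10833 had 1 gene symbol. Symbols of all 56 members were the same in RefSeq's GRCm38 table.

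Values were transformed as log2(signal + 16), which understates changes of dim genes. Dim probe sets, below the 40th percentile of mean log2 signal (near a signal of 582), were removed, leaving 7453, among them 46 of the members. The genotype effect was estimated in limma 3.58.1 (R 4.3.3; lmFit, then eBayes with trend). P-values were adjusted by Benjamini-Hochberg across these 7453, and 0.05 was the threshold. The procedure was tested on simulated data with independent noise for each probe set and array. Differences shared by many probe sets of an array were not simulated. The number of arrays limits the precision.

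The members, role groups, regulator and marker lists and alternatives were chosen with earlier results of these data known. Named by rule were members past the threshold, 10 higher and 10 lower of smallest p, 2 of highest mean signal per role, those whose probe sets differed by over 1 log2 unit (0 genes), 3 of largest spread, and 4 per regulator list; the other members and the paralogue ratios were added after their values were seen. Levels were not compared between probe sets, and ratios of paralogues only between genotypes. Alternatives were other pseudocounts, filters and scalings, no trend, a replicate block, arrays left out, knockout array 1 alone, a 3' to 5' covariate, a threshold of 0.10 and other probe set choices.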

Additional observations from a re-analysis of the deposited data

How the results depend on the processing

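With 3 arrays per genotype, precision is limited by their number. No Rab, Arf or Arl gene passed under any of the 16 alternative fits (0 of 571 values), 528 values kept their direction and 43, in 20 genes, did not. The fit of knockout array 1 alone takes its spread from the wild-type arrays and assumes that the lone array varies like them; without it 0 of 535 values passed and 34, in 20 genes, turned. Over all probe sets the count of 33 became 17 without the eBayes trend, 13 with knockout array 1 alone, 11 with the 3' to 5' covariate and 55 at a threshold of 0.10. Leaving out 1 array gave 15 (without knockout array 3) to 141 (without knockout array 1), with 17 and 19 without wild-type arrays 2 and 3. Regulator genes past the threshold were 0 to 1, the 1 being Kif20a without knockout array 2, which is dim in knockout and was tested only through wild type. The member median of -0.08 was 0.026 with the covariate and -0.11 to -0.01 on leaving out 1 array. The replicate block gave 57 probe sets and 0 members. Deviations of same-numbered arrays had correlations of 0.26, -0.04 and -0.04, and those of differently numbered arrays ran from -0.18 to 0.25. With 3 arrays per genotype this cannot decide whether the numbers pair the animals. The cause of the turned directions that follow was not tested. With knockout array 1 alone the log2 change was -0.19 for Arf2, -0.023 for Arf5, 0.12 for Arl1, 0.17 for Rab11a, -0.012 for Rab12, 0.058 for Rab25, 0.12 for Rab34, 0.25 for Rab3a, 0.0078 for Rab5a and 0.18 for Rabggta. With the covariate it was -0.36 for Arf2, -0.062 for Arf5, 0.18 for Arl1, 0.28 for Rab11a, -0.074 for Rab12, 0.024 for Rab14, 0.018 for Rab21, 0.11 for Rab24, 0.12 for Rab25, 0.048 for Rab2a, 0.072 for Rab33a, 0.22 for Rab34, 0.55 for Rab3a, 0.014 for Rab3d, 0.032 for Rab5a, 1.0e-04 for Rab9, -0.058 for Dennd5a, 0.57 for Rabggta and 0.0035 for Smap1. Median scaling gave 0.0030 for Rab28. On leaving out 1 array the ranges that crossed 0 were -0.013 to 0.52 for Arf2, -0.072 to 0.26 for Arf4, -0.0078 to 0.21 for Arf5, -0.16 to 0.013 for Arl1, -0.19 to 0.15 for Arl3, -0.30 to 0.010 for Rab11a, -0.43 to 0.094 for Rab25, -0.10 to 0.11 for Rab28, -0.29 to 0.0064 for Rab34, -0.19 to 0.030 for Rab5a and -0.071 to 0.17 for Rab7. Leaving out probe sets with a suffix letter, the counts without the single-array fit and the marker sums without 1 gene were chosen after seeing the data.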
